A study of Mus musculus with 22 samples.

Results

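Bmal1 KO regulatory T cells (Tregs) were compared with Bmal1 WT Tregs from the visceral fat of mice on the lean diet, gene by gene and over groups of genes outside the core clock. The comparison rested on 6 RNA-seq libraries of the 22 in the series, chosen by their labels (LFD, with bmal1KO or bmal1WT). There were 3 KO and 3 WT libraries, all from 18-week-old male mice at ZT0, the time of lights on. The other libraries came from KO and WT mice after 4 weeks of high fat diet (18 weeks old), after 16 weeks of high fat diet (30 weeks old) and after adoptive transfer. KO and WT mice alike carried the C57BL/6 Foxp3.Cre-YFP strain label, in which the Foxp3 gene, active in Tregs, drives a Cre recombinase and a yellow fluorescent protein. Each library came from 1000 Foxp3YFP+ cells sorted in 2 rounds. The labels give neither the deleted part of Bmal1 nor whether a library came from 1 animal, and all p-values rest on the spread between libraries, which may be technical.

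BMAL1, encoded by Arntl, pairs with CLOCK or NPAS2 and binds E-box DNA to drive the day-night rhythm of gene expression. Its targets include its own inhibitors, the PER and CRY proteins, and the REV-ERB repressors Nr1d1 and Nr1d2, which hold down a further set of genes. Tregs of visceral fat restrain inflammation there, depend on the lipid sensor PPARG and on the alarmin IL-33, and carry a more activated program than lymphoid Tregs.

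Markers of the labelled cell type were present in every library. Foxp3, the lineage factor, had 517, 463 and 512 CPM in KO libraries, against 569, 601 and 588 CPM in WT libraries. Its log2 fold change (KO over WT, ± standard error throughout) was -0.24 ± 0.11, with an adjusted p of 0.667 by the edgeR quasi-likelihood test, so it did not pass the threshold of 0.05 although the ranges of the groups were apart. CPM are counts scaled to a common library total after TMM. Il1rl1, the IL-33 receptor, was at 761, 776 and 712 CPM in KO and 945, 374 and 558 CPM in WT libraries, and Pparg at 87.8, 74.3 and 64.0 CPM in KO and 113, 53.3 and 30.9 CPM in WT libraries. Neither gene separated the groups. In bulk libraries, fewer cells of a type and less RNA per cell cannot be told apart.

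Arntl itself had 103, 79.1 and 75.8 CPM in KO libraries, against 76.5, 70.4 and 65.7 CPM in WT libraries (log2 0.29 ± 0.18 at adjusted p = 0.781). The groups overlapped, and a count over the whole gene (chr7:113207465-113314126, mm10) says nothing of a transcript that lacks a part.

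Total counts were 1955940 to 2804378 in KO and 2090078 to 2272273 in WT libraries. KO libraries had fewer detected genes (18898 to 19434, against 19452 to 19535 in WT), and their 10 most abundant genes took 9.90% to 11.6% of counts, against 8.87% to 10.5% in WT. A library with no count of a gene could hold up to 3 counts of it, which is 1.12 to 1.63 CPM in KO and 1.28 to 1.45 CPM in WT, for counting error only. Single libraries differed from their group in several ways. WT library 1 lay nearer to KO libraries 1 and 2 than to the other WT libraries on the first principal component (-2.23, against -7.23, -20.2 and -33.6 in KO libraries 1 to 3, and 34.7 and 28.5 in the other WT libraries). That component held 26.9% of the variance. On the second (21.3%), KO library 3 lay furthest from zero (-36.5), and on the third (18.8%), KO library 2 did (38.6). KO library 1 had the highest summed heat shock genes, at 9757, 6498 and 6709 CPM in KO libraries 1 to 3, against 6674, 6705 and 6822 CPM in WT libraries, and the only plasmacytoid dendritic cell signal (Siglech, 24.6, 0 and 0.471 CPM in KO and 0, 0 and 0.483 CPM in WT). Markers of other cells overlapped between the groups for every list. B cell markers summed to 365, 358 and 380.5 CPM in KO libraries and 328, 502 and 498 CPM in WT libraries. Markers of killer lymphocytes summed to 421, 621 and 508 CPM in KO libraries and 381, 716 and 581 CPM in WT libraries, and those of macrophages to 10.8, 18.4 and 14.6 CPM in KO libraries and 3.85, 14.5 and 9.66 CPM in WT libraries. Adipocyte markers summed to at most 7.47 CPM in KO and 7.69 CPM in WT libraries.

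Across the genome few single genes passed. Of 11698 genes tested, 5 passed an adjusted p of 0.05 (0.0427%), of which 3 rose (0.0256%) and 2 fell (0.0171%) in KO. At an unadjusted p under 0.05 there were 839 genes (7.17%), of which 435 (3.72%) were higher and 404 (3.45%) lower in KO. KO and WT ranges were apart for 805 genes with KO above (6.88%) and 734 with KO below (6.27%). The median log2 fold change of all genes was -0.0027. Sizes were mostly small: 255 genes had a log2 fold change over 1 and 323 under -1, and 92 and 130 of these had an unadjusted p under 0.05.

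**Figure D1:**
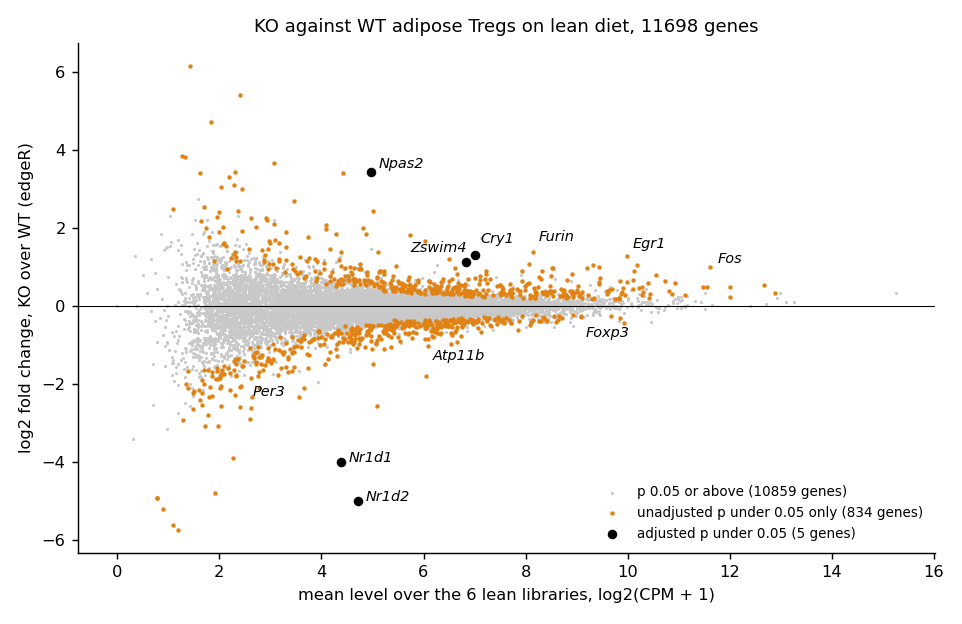
Each point is a gene, with its mean level over the 6 lean libraries, log2(CPM + 1), on the x axis and its log2 fold change, KO over WT, on the y axis. The 5 genes past the adjusted threshold (black) are Nr1d2 and Nr1d1 below zero and Npas2, Cry1 and Zswim4 above it, while the 834 genes at an unadjusted p under 0.05 only (orange) lie on both sides.

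Of the 5 genes, 4 belonged to the clock. Nr1d2 fell to 2.61, 1.63 and 0 CPM in KO libraries, against 52.4, 43.9 and 50.7 CPM in WT libraries (log2 -5.00 ± 0.49 at adjusted p = 2.32e-05). Nr1d1 fell to 4.48, 1.08 and 0.942 CPM in KO, against 46.2, 26.4 and 40.1 CPM in WT (log2 -3.98 ± 0.49 at adjusted p = 0.000354). Cry1, an inhibitor of BMAL1 that REV-ERB represses, rose to 194, 161 and 194 CPM in KO, against 83.2, 71.6 and 65.2 CPM in WT (log2 1.32 ± 0.14 at adjusted p = 7.73e-05). Npas2, also REV-ERB repressed, rose to 52.7, 56.9 and 57.0 CPM in KO, against 9.14, 0 and 6.28 CPM in WT (log2 3.46 ± 0.50 at adjusted p = 0.00329). These 4 genes passed in every one of the 14 alternatives tried. The output arm of the clock was less uniform. Of 11 tested genes driven by BMAL1 and CLOCK, the repressors Per3 (log2 -2.08) and Ciart (-1.5) had unadjusted p-values of 5.18e-05 and 0.00197, whereas the output factors Dbp (-0.45) and Tef (-0.41) and the repressor Per1 (-0.34) did not reach 0.05 even unadjusted. In that list 4 genes were lower and 2 higher at an unadjusted p under 0.05, against 3.45% and 3.72% of all genes. The higher ones were the output factor Hlf, with 13.4, 19.0 and 18.4 CPM in KO and 10.1, 4.69 and 7.73 CPM in WT (log2 1.17 at adjusted p = 0.665), and the repressor Cry2, with 38.1, 41.2 and 56.0 CPM in KO and 20.2, 20.5 and 31.4 CPM in WT (log2 0.91 ± 0.24 at adjusted p = 0.392).

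Zswim4, which encodes a SWIM-type zinc finger protein, was the call outside the clock. It rose to 184, 149 and 134 CPM in KO libraries, against 89.4, 64.4 and 58.4 CPM in WT libraries, a fold of 2.20 (log2 1.14 ± 0.21 at adjusted p = 0.0462). The lowest KO library was above the highest WT library. The call was near the threshold: it was lost when any library except WT library 1 was left out (adjusted p 0.0541 to 0.579 there, and 9.6e-07 to 0.579 over all 14 alternatives).

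The promoter windows of the 5 called genes are shown so that 2 clock motifs, the E-box and the REV-ERB half-site, and some other motifs can be looked for. Each window runs from 250 bases before to 50 bases after the transcription start (RefSeq, GRCm38.p6), and is written on the gene's strand. Capitals mark any match, on either strand, to the E-box CACGTG, the REV-ERB and ROR half-site AGGTCA, the cAMP response element TGACGTCA, the AP-1 site TGANTCA or a CArG box.
Cry1, chr10:85185005-85185304, minus strand: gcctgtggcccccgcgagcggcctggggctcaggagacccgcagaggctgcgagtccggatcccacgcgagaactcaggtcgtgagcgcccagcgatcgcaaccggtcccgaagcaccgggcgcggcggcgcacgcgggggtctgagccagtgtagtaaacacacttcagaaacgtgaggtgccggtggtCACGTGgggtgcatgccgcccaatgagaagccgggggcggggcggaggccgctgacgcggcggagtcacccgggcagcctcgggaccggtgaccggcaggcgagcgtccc
Nr1d2, chr14:18239057-18239356, minus strand: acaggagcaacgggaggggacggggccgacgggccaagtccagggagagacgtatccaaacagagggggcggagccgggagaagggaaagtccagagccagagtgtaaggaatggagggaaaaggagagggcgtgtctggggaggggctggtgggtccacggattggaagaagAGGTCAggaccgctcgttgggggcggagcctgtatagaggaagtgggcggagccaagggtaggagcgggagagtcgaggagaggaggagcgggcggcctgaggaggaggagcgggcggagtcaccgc
Nr1d1, chr11:98775328-98775627, minus strand: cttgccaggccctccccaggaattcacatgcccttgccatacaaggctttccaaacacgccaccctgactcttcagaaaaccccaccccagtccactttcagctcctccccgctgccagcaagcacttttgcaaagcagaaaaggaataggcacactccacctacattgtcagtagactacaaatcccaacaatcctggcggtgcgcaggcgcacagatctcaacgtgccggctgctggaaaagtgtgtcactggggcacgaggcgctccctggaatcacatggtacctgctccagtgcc
Npas2, chr1:39194022-39194321, plus strand: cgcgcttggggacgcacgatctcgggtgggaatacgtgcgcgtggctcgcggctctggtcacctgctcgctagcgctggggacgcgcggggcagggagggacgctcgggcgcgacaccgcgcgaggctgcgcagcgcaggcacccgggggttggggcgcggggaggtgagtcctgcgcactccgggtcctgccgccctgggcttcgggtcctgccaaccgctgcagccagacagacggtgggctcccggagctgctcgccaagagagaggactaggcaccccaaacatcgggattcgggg
Zswim4, chr8:84236993-84237292, minus strand: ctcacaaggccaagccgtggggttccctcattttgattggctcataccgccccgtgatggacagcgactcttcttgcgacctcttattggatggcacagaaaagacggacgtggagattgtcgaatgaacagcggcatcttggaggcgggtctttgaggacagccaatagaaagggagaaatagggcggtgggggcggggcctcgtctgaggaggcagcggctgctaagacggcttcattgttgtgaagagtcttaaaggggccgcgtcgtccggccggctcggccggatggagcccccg
The Cry1 window holds an E-box starting 60 bases before the start, the Nr1d2 window holds the half-site 77 bases before it, and the Nr1d1, Npas2 and Zswim4 windows hold none of these motifs. Among 8787 tested genes with a promoter in the table, 12.2% held CACGTG, 14.7% AGGTCA, 3.73% TGACGTCA, 5.80% TGANTCA and 1.46% a CArG box, and AGGTCA can overlap the other motifs. Of the 15 genes of smallest p that were higher in KO, 12 had a promoter in the table and 2 of these (Cry1 and Dhx40) held CACGTG. Of the 15 that were lower, 12 had one and 0 held CACGTG. A match of letters is a description and not a binding site. Sequence outside the windows and other forms of the motifs were not searched.

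The genes of smallest p after the calls, to make 15 in each direction, did not pass the threshold. Among those higher in KO, Furin, the protease that matures TGF-beta and other precursors, had 373, 454 and 405 CPM in KO libraries, against 174, 126 and 171 CPM in WT libraries (log2 1.39 ± 0.27 at adjusted p = 0.0844). The groups were far apart, and Furin passed in 5 of 14 alternatives (adjusted p 1.75e-16 to 0.666). The predicted gene Gm44851 overlaps it on the other strand, and the kit does not mark strand, so reads of the pair are not separated here, nor are those of Jun, Junb, Dusp1, Zfp36, Hmgcs1, Cdkn1a, Lpar6, Mto1, Abcb1a and Foxp3 from genes that overlap them. Cdkn1a, the cell cycle inhibitor p21, had 295, 351 and 301 CPM in KO, against 203, 142 and 159 CPM in WT (log2 0.91 ± 0.19 at adjusted p = 0.14). Neat1, the long non-coding RNA that scaffolds nuclear paraspeckles, had 955, 915 and 768 CPM in KO, against 575, 509.6 and 518 CPM in WT (log2 0.72 ± 0.15 at adjusted p = 0.12). Every KO library was above every WT library for both genes. The early response factors Egr1, Jun and Fos belong to the same 15 and are described with their families. The others were the helicase Dhx40 (log2 0.68), the EF-hand protein Efcab14 (0.78), the antisense transcript Atxn7l1os1 (3.06), the lysophosphatidic acid receptor Lpar6 (0.62), the mitochondrial tRNA modifier Mto1 (0.98) and the inhibitory receptor Lilr4b (0.92), with adjusted p-values of 0.159 to 0.162.

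**Figure D2:**
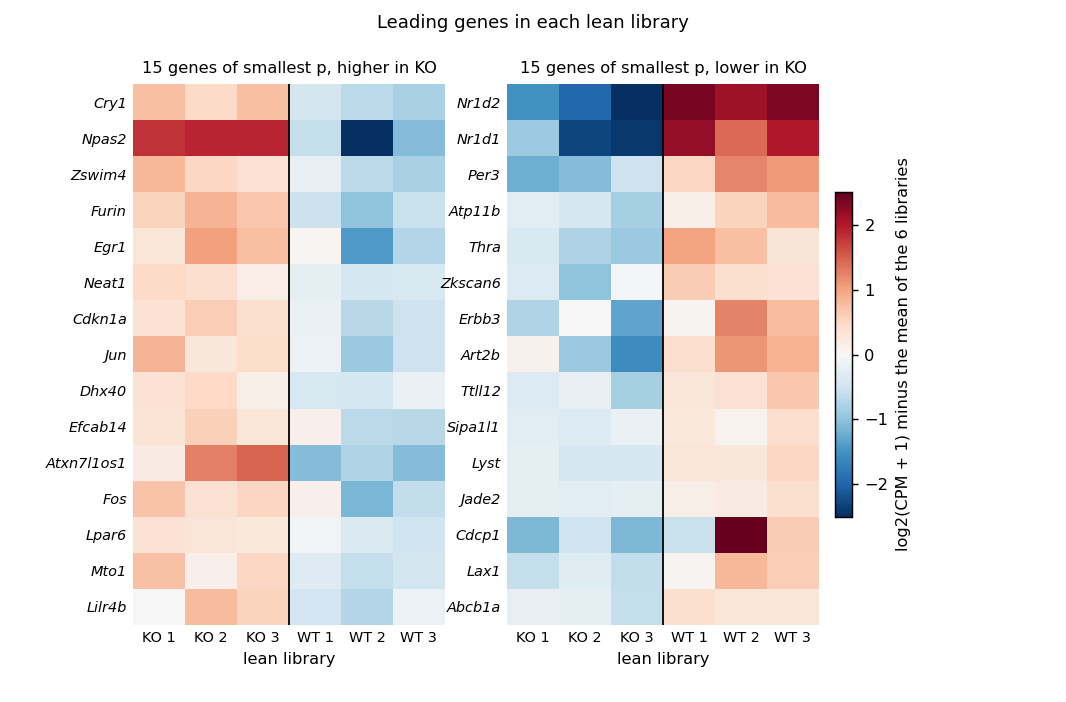
Each square is a gene (rows) in a lean library (columns, KO left of the line and WT right of it), coloured by log2(CPM + 1) minus the mean of the 6 libraries. Left, the 15 genes of smallest p that were higher in KO; right, the 15 that were lower, with WT library 1 pale in several rows of both panels.

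Among genes lower in KO, Atp11b, a P4-type ATPase that flips phospholipids across membranes, had 51.5, 46.1 and 34.4 CPM in KO libraries, against 68.3, 91.3 and 108 CPM in WT libraries (log2 -1.02 ± 0.23 at adjusted p = 0.162). Art2b, a surface ADP-ribosyltransferase of mouse T cells, had 27.6, 13 and 8.01 CPM in KO, against 34.6, 56.7 and 47.8 CPM in WT (log2 -1.48 ± 0.36 at adjusted p = 0.238). In both genes the highest KO library was below the lowest WT library. Lax1, an adaptor that dampens antigen receptor signalling, had 22, 27.1 and 21.7 CPM in KO, against 35.6, 61.0 and 52.6 CPM in WT (log2 -1.08 ± 0.30 at adjusted p = 0.41). Lyst, a regulator of lysosome size and trafficking, had 57.1, 50.4 and 50.4 CPM in KO, against 84.1, 83.2 and 98.5 CPM in WT (log2 -0.75 ± 0.19 at adjusted p = 0.265). The groups were apart in both. Erbb3, a neuregulin receptor, had few reads (7.47, 13 and 4.71 CPM in KO, against 13.9, 32.4 and 23.2 CPM in WT), as had Thra (5.23, 3.79 and 3.30 CPM in KO, against 15.4, 12.8 and 9.18 CPM in WT), which overlaps Nr1d1 on the other strand. The rest were the Rap regulator Sipa1l1 (log2 -0.52), the tubulin ligase family member Ttll12 (-0.92), the zinc finger gene Zkscan6 (-0.89), the chromatin scaffold Jade2 (-0.51) and the drug efflux pump Abcb1a (-0.68), each with groups apart. Cdcp1, a surface glycoprotein, had 0, 0.542 and 0 CPM in KO, against 0.481, 13.2 and 2.41 CPM in WT, and rests on WT library 2.

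Early response genes, which lymphocytes induce within minutes to hours of receptor stimulation, were described by family, and none passed the adjusted threshold. Egr1 had 1079.6, 1773 and 1477 CPM in KO, against 908, 327 and 528 CPM in WT (log2 1.30 ± 0.26 at adjusted p = 0.102). All 8 tested genes of the EGR and NR4A families had positive folds, against 49.6% of all genes (median log2 0.26). Of these, 3 had an unadjusted p under 0.05, against 3.72% of all genes. Nr4a1, an orphan receptor used as a reporter of T cell receptor signalling, had 3511, 3510.3 and 3468 CPM in KO, against 3353, 1808 and 2306 CPM in WT (log2 0.49 ± 0.20 at adjusted p = 0.605). Its WT library 1 was close to the KO libraries. Over the whole list the groups overlapped: the median of log2(CPM + 1) relative to the mean of the 6 libraries was -0.089 in KO library 1 and 0.071 in WT library 1.

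AP-1 is the dimer of FOS and JUN family proteins. Fos was among the most abundant transcripts, with 4663, 3707 and 4156 CPM in KO libraries, against 3105, 1293 and 1853 CPM in WT libraries (log2 1.00 ± 0.22 at adjusted p = 0.159). Jun had 1057, 718 and 804 CPM in KO, against 529, 307 and 410.1 CPM in WT (log2 1.05 ± 0.23 at adjusted p = 0.159). Each KO library exceeded each WT library in both genes, which passed in 5 (Fos) and 2 (Jun) of 14 alternatives. Fosb (log2 0.75) and Junb (0.34) also had groups apart, while Jund (0.094), Fosl2 (0.16) and Maff (0.0058) lay nearer zero. In all, 4 of 10 AP-1 genes were higher at an unadjusted p under 0.05 and 0 lower, against 3.72% and 3.45% of all genes (median 0.33).

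Of 16 other early response genes, 6 were higher and 1, the kinase Sik1, lower at an unadjusted p under 0.05, against 3.72% and 3.45% of all genes (median 0.39). Cd69, the activation antigen that retains T cells in tissue, had 1304, 1245 and 1531 CPM in KO libraries, against 1098, 639.7 and 795 CPM in WT libraries (log2 0.69 ± 0.16 at adjusted p = 0.184). Among the KLF factors, Klf4 had 48.2, 45.0 and 42.9 CPM in KO, against 23.1, 21.3 and 27.5 CPM in WT (log2 0.92 ± 0.27 at adjusted p = 0.41), and Klf6 was also higher (log2 0.61), whereas Klf3, a repressor, was lower (log2 -0.85, with overlapping groups). Messenger RNA decay factors split by member: Btg2 (log2 0.59), Zfp36 (0.79) and Zfp36l1 (0.43) were above and Zfp36l2 (-0.64) below zero, and 6 of 11 had negative folds (median -0.0035). Feedback inhibitors of MAP kinases had 8 negative folds among 11 genes, against 50.4% of all genes (median -0.21). At an unadjusted p under 0.05, 1 of them was higher and 2 lower. Dusp1, the phosphatase best known as an early response gene, had 8171, 7191 and 7886 CPM in KO, against 6855, 3822 and 5154 CPM in WT (log2 0.55 ± 0.16 at adjusted p = 0.41), while Dusp10 (log2 -0.62) and Spry1 (-0.54) were on the other side.

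Leaving out 1 library at a time kept the medians of the EGR and NR4A, AP-1 and other early response lists above zero (0.21 to 0.46, 0.28 to 0.42 and 0.29 to 0.52). The count of other early response genes at an unadjusted p under 0.05 was 2 without WT library 2 or 3 and 3 without KO library 2, and that of EGR and NR4A genes 1 without WT library 2 or 3 and 2 without any single KO library. The summed heat shock genes, high in KO library 1, were 9757, 6498 and 6709 CPM in KO and 6674, 6705 and 6822 CPM in WT libraries, and their part in these results was not tested.

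**Figure D3:**
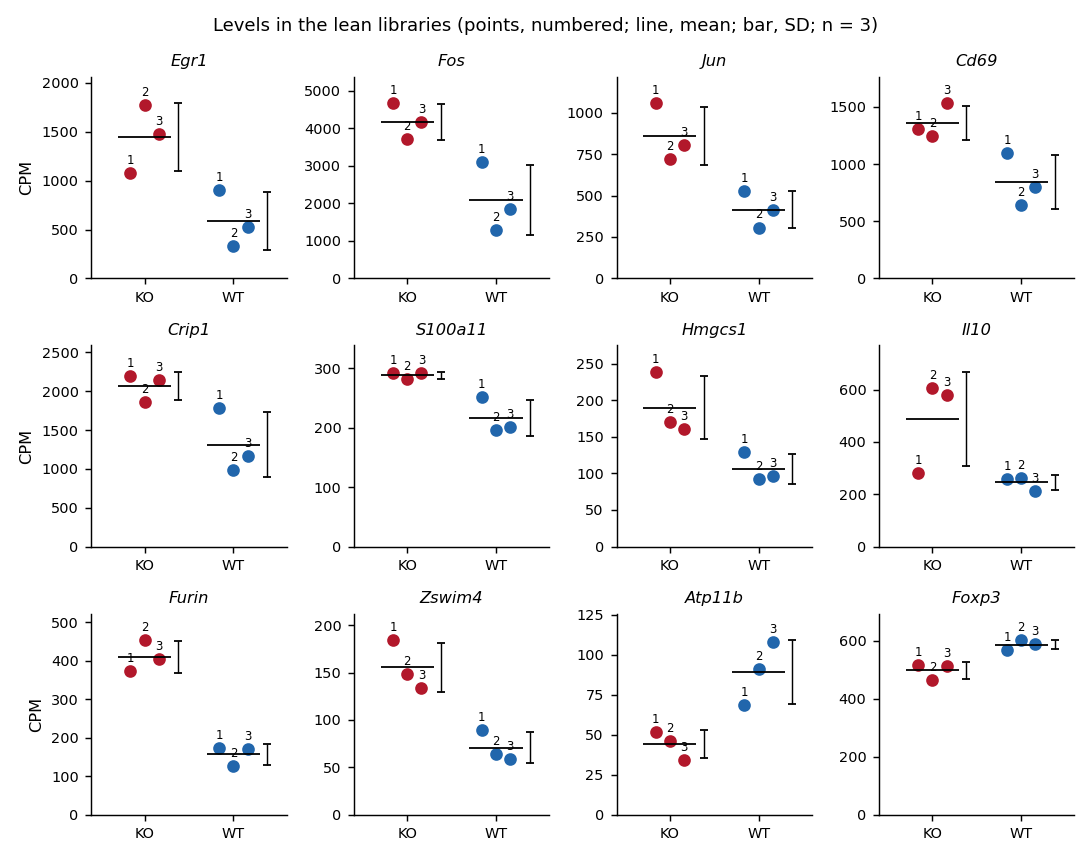
Levels in CPM (y axis from 0) of 12 genes in the 3 KO libraries (red, left) and 3 WT libraries (blue, right), with points numbered by library, lines for the mean and bars for the SD. KO libraries lie above WT libraries in 10 of the panels and below them for Atp11b and Foxp3, and WT library 1 is the WT point nearest to KO in every panel except Il10.

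Among NF-kB genes, the inhibitor Nfkbia had 3117, 3329.8 and 3603 CPM in KO, against 3003, 1767 and 2326 CPM in WT (log2 0.50 ± 0.16 at adjusted p = 0.471). Traf1, a signalling adaptor of TNF receptors, had 767, 964 and 919 CPM in KO, against 648, 719 and 635 CPM in WT (log2 0.40 ± 0.11 at adjusted p = 0.41). Of 18 genes of the list, 4 were higher and 1 lower at an unadjusted p under 0.05, against 3.72% and 3.45% of all genes, and 6 had KO ranges above WT, against 6.88%, with a median of 0.10. The TGF-beta list, which holds Furin, had a median of 0.079 over 17 genes. Besides Furin, Tgfb1 itself had 62.4, 57.5 and 57.0 CPM in KO, against 53.9, 37.5 and 39.1 CPM in WT (log2 0.44, unadjusted p = 0.0892), and the ubiquitin ligase Smurf2, which degrades receptors of the pathway, had 13.1, 15.7 and 10.8 CPM in KO, against 18.3, 28.1 and 18.8 CPM in WT (log2 -0.73, unadjusted p = 0.0103).

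The S100, annexin, Crip1 and Ahnak genes, which encode calcium-binding and membrane-associated proteins abundant in effector and memory T cells, made the list with the largest share of members higher at an unadjusted p under 0.05: 10 of 15 were higher and 0 lower, against 3.72% and 3.45% of all genes. The median log2 fold change was 0.41 and 14 members had positive folds, against 49.6% of all genes. Crip1, a LIM domain protein, had 2199.9, 1865 and 2151 CPM in KO libraries, against 1788, 984 and 1168 CPM in WT libraries (log2 0.66 ± 0.16 at adjusted p = 0.243). S100a11 had 292, 282 and 292 CPM in KO, against 251, 197 and 202 CPM in WT (log2 0.41 ± 0.13 at adjusted p = 0.471). In both genes WT library 1 lay between the KO libraries and the other WT libraries. Anxa1, the lipid-binding annexin best known for restraining inflammation, had 939, 824 and 1013 CPM in KO, against 662, 352 and 369 CPM in WT (log2 1.01 at adjusted p = 0.558). Anxa5 (log2 0.38), S100a10 (0.37), S100a6 (0.65) and Lgals3 (0.68) also had groups apart, and Anxa6 (-0.011) did not differ detectably. None passed the adjusted threshold. Leaving out WT library 1 gave 12 members and a median of 0.68, and leaving out WT library 2 or 3 gave 3 or 5 members and medians of 0.31 and 0.35.

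Promoters of 2 members with an E-box are shown, written and marked as above.
S100a6, chr3:90612644-90612943, plus strand: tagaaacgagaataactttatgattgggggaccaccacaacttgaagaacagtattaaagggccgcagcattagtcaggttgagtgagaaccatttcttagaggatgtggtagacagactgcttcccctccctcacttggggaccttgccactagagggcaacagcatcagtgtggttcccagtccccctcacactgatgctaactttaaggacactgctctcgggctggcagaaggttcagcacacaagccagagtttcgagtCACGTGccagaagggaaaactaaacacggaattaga
S100a11, chr3:93520246-93520545, plus strand: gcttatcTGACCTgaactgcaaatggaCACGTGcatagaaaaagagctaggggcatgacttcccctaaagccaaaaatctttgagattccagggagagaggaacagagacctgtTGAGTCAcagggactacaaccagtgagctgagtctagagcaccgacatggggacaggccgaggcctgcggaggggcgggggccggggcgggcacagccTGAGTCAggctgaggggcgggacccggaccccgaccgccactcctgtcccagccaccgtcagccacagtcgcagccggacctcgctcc
S100a6 has CACGTG 14 bases after its start, and S100a11 has it 223 bases before, with TGANTCA matches 136 and 38 bases before and AGGTCA on the other strand 243 bases before. Of the 12 members with a promoter in the table, 2 held CACGTG and 2 TGANTCA, which is 16.7% in both cases, against 12.2% and 5.80% of all tested genes.

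Genes of the adipose Treg program leaned towards KO with wide spread. Of 19 receptors and effector molecules, 16 had positive folds, against 49.6% of all genes (median 0.46). At an unadjusted p under 0.05, 3 were higher and 0 lower, against 3.72% and 3.45% of all genes. Il10, the suppressive cytokine, had 279.7, 604 and 579 CPM in KO libraries, against 259, 263 and 213 CPM in WT libraries (log2 0.99 ± 0.45 at adjusted p = 0.667), so KO library 1 was near WT. Cxcr6, a chemokine receptor of tissue-resident T cells, had 1167, 2062 and 1171 CPM in KO, against 1204, 589.8 and 530.3 CPM in WT (log2 0.92 ± 0.35 at adjusted p = 0.552), with WT library 1 as high as 2 KO libraries. Klrg1 had 1512, 1518 and 1521 CPM in KO, against 1588, 748 and 978 CPM in WT, and Areg, a tissue repair factor, 819, 898 and 1094 CPM in KO, against 1027, 362 and 610.0 CPM in WT. For both, WT library 1 was within or above the KO range (adjusted p = 0.796 and 0.812). Gzmb, granzyme B, pointed the other way, with 51.2, 45.0 and 66.4 CPM in KO, against 93.3, 81.9 and 103 CPM in WT (log2 -0.77 ± 0.38 at adjusted p = 0.71). Gata3, a lineage factor of these cells, had 1863, 2205 and 2064 CPM in KO, against 1903, 1259 and 1529 CPM in WT (log2 0.39 ± 0.18 at adjusted p = 0.667), and the 12 transcription factors had a median of 0.28. The receptor list rests on single libraries: 7 members without WT library 1 (median 0.72), 5 without KO library 1, 1 without WT library 2 (median 0.24), and 0 without KO library 2 or WT library 3.

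Core Treg genes split. Il2ra, which makes the IL-2 receptor bind with high affinity, had 636, 897 and 971 CPM in KO libraries, against 656, 541 and 469 CPM in WT libraries (log2 0.59 ± 0.18 at adjusted p = 0.41). Ctla4, the co-inhibitory receptor, had 657, 983 and 1001 CPM in KO, against 731, 636 and 688 CPM in WT (log2 0.36 ± 0.15 at adjusted p = 0.627). In both, KO libraries 2 and 3 were high and KO library 1 lay within the WT range. Foxp3 was on the other side, Ikzf2 near zero (log2 -0.024), and the median of 15 genes was -0.024. In the IL-2 pathway, the shared receptor chain Il2rg had 1025, 1061 and 1107 CPM in KO, against 952, 738 and 794 CPM in WT (log2 0.36 ± 0.11 at adjusted p = 0.41). The downstream Stat5b had 131, 118 and 73.9 CPM in KO, against 164, 136 and 206 CPM in WT (log2 -0.65 ± 0.22 at adjusted p = 0.483), and the kinase Jak1 was also below WT in every library (log2 -0.25).

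Among 24 genes of proximal T cell receptor signalling, 0 were higher and 3 lower at an unadjusted p under 0.05, against 3.72% and 3.45% of all genes. Themis (log2 -0.68) and Plcg1 (-0.34) were among the 3. The list's median was -0.027, and 0.019 without WT library 3. Rptor, the scaffold of mTOR complex 1, had 44.4, 33.1 and 38.1 CPM in KO, against 58.2, 58.0 and 73.9 CPM in WT (log2 -0.71 ± 0.21 at adjusted p = 0.41), and Mtor had 41.8, 51.0 and 48.0 CPM in KO, against 64.4, 68.2 and 56.0 CPM in WT (log2 -0.43). Both had groups apart. Their list of 21 had 1 gene higher and 2 lower at an unadjusted p under 0.05. Its median was -0.10, and -0.15 to 0.022 leaving out 1 library. At an unadjusted p under 0.05, 3 of 11 genes of purine receptors and ADP-ribosylation were lower and 1 higher. Over all genes the shares were 3.45% and 3.72%. The lower ones were Art2b, Parp14 and Art2a, and the higher one was the NAD glycohydrolase Cd38. Parp14 had 57.1, 71.6 and 67.8 CPM in KO, against 78.9, 116 and 87.4 CPM in WT, and Cd38 had 46.7, 56.4 and 40.0 CPM in KO, against 39.4, 32.0 and 22.2 CPM in WT. The P2X7 receptor P2rx7, through which ART2 enzymes act on T cells, had a log2 fold change of -0.53 (unadjusted p = 0.0748).

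Over the whole genome, the fold change ran with exon length. The median log2 fold change was 0.055 in the quartile of genes with the shortest exon sequence (37 to 2677 bases), 0.025 and -0.021 in the middle quartiles, and -0.071 in the quartile of the longest (6722 to 123179 bases). At an unadjusted p under 0.05 there were 149 higher and 59 lower genes among the shortest, against 57 higher and 160 lower among the longest. After 4 weeks of high fat diet the order ran the other way, from -0.030 to 0.033, and after 16 weeks the quartile medians lay between -0.0099 and 0.0050. Exon lengths were found for 11552 of the tested genes (98.8%). By level, the most abundant quartile had 218 higher and 111 lower genes. Median exon length was 4340 bases over all genes. It was 1858 in the S100 and annexin list, 1675 in the respiratory chain list and 2473 in the AP-1 list. In the list of mTOR and PI3K signalling it was 9088. Nearer the value of all genes were the EGR and NR4A list (4079.5) and the sterol and fatty acid synthesis list (4839). The proximal T cell receptor list had 4845 and the other early response list 3106.5. The part of length in the results for these lists was not tested.

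**Figure D4:**
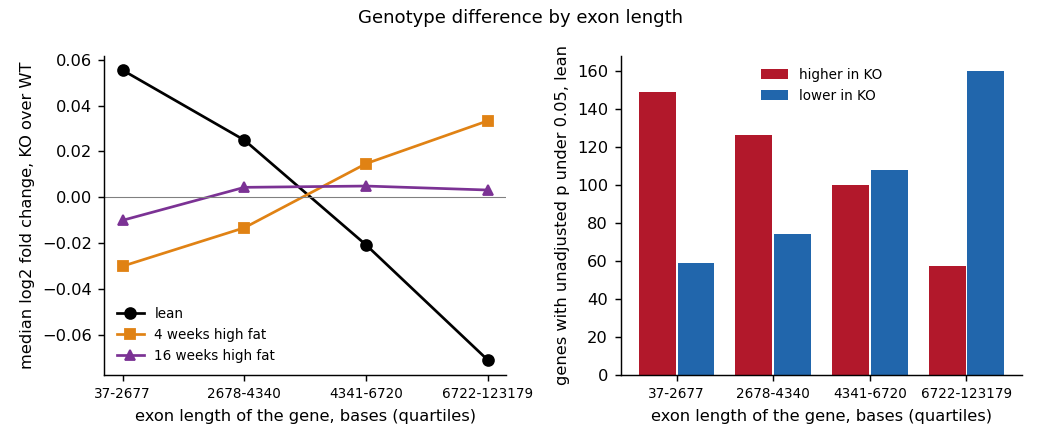
Left, median log2 fold change, KO over WT, in quartiles of the gene's exon length in bases, on the lean diet (circles) and after 4 (squares) and 16 weeks (triangles) of high fat diet. Right, number of genes at an unadjusted p under 0.05 on the lean diet, higher (red) and lower (blue) in KO, which turns from 149 and 59 among the shortest to 57 and 160 among the longest.

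Of 75 nuclear genes of oxidative phosphorylation, 63 had positive folds, against 49.6% of all genes, and 15 had KO ranges above WT, against 6.88%. At an unadjusted p under 0.05, 4 were higher and 0 lower, a share near that of all genes (3.72% higher; median 0.12). Ndufa11, a subunit of complex I, had 93.0, 73.2 and 80.5 CPM in KO libraries, against 71.6, 55.9 and 54.6 CPM in WT libraries (log2 0.44 ± 0.15 at adjusted p = 0.496). Atp5b, a subunit of ATP synthase, had 957, 976 and 967 CPM in KO, against 899, 806 and 836 CPM in WT (log2 0.19 ± 0.09 at adjusted p = 0.678). The groups were apart in both by a narrow margin. The median stayed between 0.10 and 0.17 whichever library was left out.

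In the sterol and fatty acid synthesis list, 8 of 34 genes were higher and 0 lower at an unadjusted p under 0.05, against 3.72% and 3.45% of all genes (median 0.11). Most of the 8 belong to the cholesterol branch. Hmgcs1, which makes the precursor of mevalonate, had 239, 170.2 and 161 CPM in KO, against 129, 92.5 and 96.1 CPM in WT (log2 0.85 ± 0.25 at adjusted p = 0.41). Sqle, squalene epoxidase, had 139, 119.8 and 126 CPM in KO, against 97.6, 63.1 and 54.6 CPM in WT (log2 0.84 ± 0.24 at adjusted p = 0.41). Msmo1 (log2 0.65) and Cyp51 (0.54) act further along the same branch, and Insig1 (0.56) is a feedback sensor of sterols. The fatty acid synthesis enzymes Fasn (log2 -0.20) and Acaca (-0.38) did not share the direction (unadjusted p = 0.288 and 0.206). KO library 1 was the highest for Hmgcs1 and Sqle; without it 4 members were higher and 1 lower, and without WT library 3 there were 3 higher and 0 lower.

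Other programs had few members at an unadjusted p under 0.05, where 3.72% of all genes were higher and 3.45% lower. Of 26 glycolysis and hypoxia genes 0 were higher and 3 (11.5%) lower at an unadjusted p under 0.05. Among the 3 was Hk2, with 2.24, 1.08 and 2.83 CPM in KO, against 8.17, 3.84 and 5.80 CPM in WT. Of 29 interferon-stimulated genes 22 had negative folds, against 50.4% of all genes (median -0.20), 1 higher and 1 lower, but the median was 0.02 without WT library 2. Cell cycle genes had a median of -0.027 over 36 genes, with 1 at an unadjusted p under 0.05 (E2f1, log2 1.33). Ribosomal protein genes had a median of 0.022 over 81 genes, and translation factors 0.047 over 18. Of 22 unfolded protein response genes, 20 had positive folds, against 49.6% of all genes (median 0.13). At an unadjusted p under 0.05, 1 was higher and 0 lower. The list was led by the stress factor Ddit3, with 30.2, 42.3 and 34.8 CPM in KO, against 22.6, 24.7 and 19.3 CPM in WT. Heat shock genes had 0 members at an unadjusted p under 0.05, and their positive folds rest on KO library 1 (Hspa1a, 518, 78.1 and 48.5 CPM in KO and 88.5, 46.5 and 58.0 CPM in WT).

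Genes near Arntl on chromosome 7, which tend to be inherited together with it, were counted apart. Within 20 Mb of Arntl, 27 of 274 tested genes (9.85%) had an unadjusted p under 0.05, 17 higher and 10 lower in KO, against 7.17% of all genes. Trim restriction factor genes in this interval form a list, of which 9 were tested. At an unadjusted p under 0.05, 3 were higher and 3 lower, against 3.72% and 3.45% of all genes. Trim12a (chr7:104299894-104315466) had 26.5, 0 and 0 CPM in KO libraries, against 60.1, 76.8 and 35.3 CPM in WT libraries (log2 -2.55 at adjusted p = 0.569). Trim30d (chr7:104470014-104507849) had 8.59, 0.542 and 0.942 CPM in KO, against 14.9, 26.9 and 13 CPM in WT (log2 -2.31 at adjusted p = 0.505). Trim21 had 25.4, 46.1 and 61.2 CPM in KO, against 2.40, 5.97 and 28.5 CPM in WT, and Trim68 35.1, 35.2 and 41.9 CPM in KO, against 24.0, 21.8 and 31.9 CPM in WT (log2 1.85 and 0.53). Trim21 (chr7:102557921-102565486) and Trim68 (chr7:102677582-102687327), both higher, lie apart from the run of Trim34a, Trim12a, Trim34b and Trim30d, which starts at 104244457. In Trim12a and Trim30d, KO library 1 held reads that KO libraries 2 and 3 nearly lacked. Trim34b had 2.61, 7.05 and 12.2 CPM in KO, against 0, 0.426 and 1.45 CPM in WT, and its near-identical neighbour Trim34a 16.4, 9.21 and 6.59 CPM in KO, against 26.4, 34.1 and 19.3 CPM in WT; reads of such copies can be split or dropped in counting, so these values are uncertain. Art2b (chr7:101576970-101585600) and its copy Art2a (11.6, 2.71 and 0.471 CPM in KO, against 11.1, 12.4 and 16.4 CPM in WT) lie in the same interval. In the high fat libraries Trim12a averaged 8.98 ± 15.6 CPM in KO and 53.5 ± 15.7 CPM in WT at 4 weeks, and 0 CPM in KO and 63.9 ± 21.2 CPM in WT at 16 weeks (SD, n = 3 each).

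The high fat groups share no library with the lean groups. No gene passed an adjusted p of 0.05 in the test of the lean difference against that at 4 weeks (0%; 534 genes, 4.56%, at an unadjusted p under 0.05) or at 16 weeks (0%; 993 genes, 8.49%), by the edgeR test. DESeq2 called 0 genes in the test against 4 weeks and 26 in that against 16 weeks. Mice at 16 weeks were also older than lean mice. Of the clock genes, Nr1d2 had log2 fold changes of -5.00 on the lean diet, -4.06 at 4 weeks and -4.00 at 16 weeks, and Cry1 1.32, 1.2 and 1.24. Egr1 and Fos were on the other side of zero at 16 weeks. Egr1 had log2 fold changes of 1.30, 0.27 and -0.66, with 206 ± 46.5 CPM in KO and 326 ± 53.9 CPM in WT at 16 weeks (mean ± SD, n = 3 each), and an adjusted p of 0.123 for lean against 16 weeks. Fos had 1.00, 0.23 and -0.71 (adjusted p = 0.123), Zswim4 1.14, 0.82 and -0.43 (adjusted p = 0.123) and Neat1 0.72, 0.064 and -0.24 (adjusted p = 0.133). Furin had 1.39, 1.5 and 0.38 (adjusted p = 0.462). Atp11b, with -1.02 on the lean diet, had 0.16 at 4 weeks and 0.34 at 16 weeks.

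Over lists, the median log2 fold change on the lean diet, at 4 weeks and at 16 weeks was 0.39, 0.037 and -0.33 for other early response genes, and 0.33, 0.088 and -0.27 for AP-1 genes. For adipose Treg receptors it was 0.46, 0.34 and -0.44, and for S100 and annexin genes 0.41, 0.25 and -0.10. In each of the 4 lists the median was highest on the lean diet and lowest at 16 weeks, and 0 of their genes passed the test of the difference between diets. Apart from clock genes and markers of other cells, these 4 lists had the largest lean medians. Their choice therefore favours a highest value on the lean diet, and the order is a description only. Other lists varied: the EGR and NR4A list had the same order (0.26, 0.17 and -0.17), and the sterol and fatty acid synthesis list did not (0.11, 0.12 and -0.032).

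**Figure D5:**
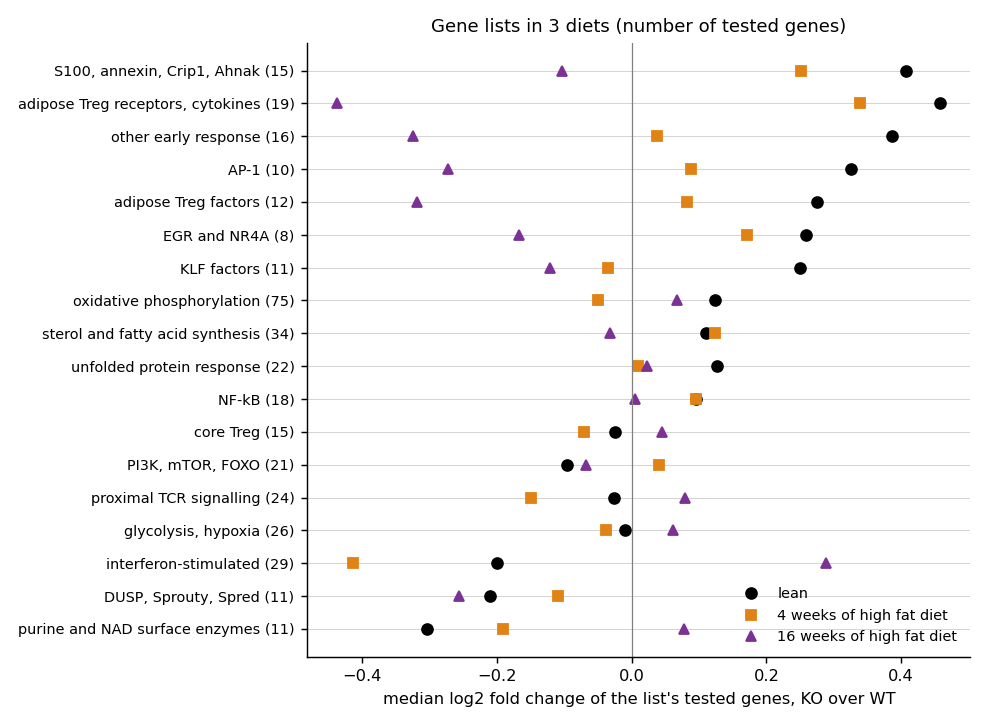
Median log2 fold change, KO over WT (x axis), of the tested genes of 18 lists (rows, number of genes in brackets) on the lean diet (circles) and after 4 (squares) and 16 weeks (triangles) of high fat diet. The other early response, AP-1, adipose Treg receptor and S100 lists lie right of zero on the lean diet and left of it at 16 weeks.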

How the data were processed

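RNA-seq counts of 6 lean libraries (3 KO, 3 WT) were analysed within the 18 diet libraries. Polyadenylated RNA was primed with oligo(dT), amplified and tagmented, per the labels' protocols, with paired reads of 38 bases and no strand mark. The submitters' processing notes name STAR 2.7.3a, featureCounts and mm10. For featureCounts, neither a version nor the use of strand is given in the sources used here. The authors deposited whole-number counts for 55011 gene symbols, with no scaling. Since PCR copies are counted apart, floors cover counting error only.

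After TMM scaling, the quasi-likelihood F test of edgeR 4.0.16 (R 4.3.3) was run with 1 mean per diet and genotype (12 residual degrees of freedom) and Benjamini-Hochberg adjustment over the 11698 genes that passed the edgeR filter (minimum count 10). Adjusted p-values without a named test are from it. The 3 diets share 1 estimate of the spread, and the transfer libraries were not used in it. Replicate numbers are not said to pair libraries. Deviations of same-numbered KO and WT libraries correlated at 0.012, 0.0025 and 0.0077, which gave no sign of pairing but cannot exclude it. No library was a copy of another or was left out. Alternatives were RLE scaling, no filter, a minimum count of 30, DESeq2 1.42.0, limma-voom (limma 3.58.1), a replicate block, other sets of libraries and leaving out each lean library. Scripts were tested on simulated data.

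Named genes were Arntl, Foxp3, those past the threshold, the next by smallest p to make 15 in each direction (leaving out predicted genes, Rik clones, receptor segments and pseudogenes), up to 4 of smallest p in each list and a fixed set. Other list members and genes are named as examples chosen after their values were seen. Some list members are not reported here. Members, lists and genes were chosen with earlier results of these data known. No set test was run: lists are given by counts and medians. Positions and exon lengths come from GENCODE M21 (mm10), in which 52936 symbols (96.2%) were found.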

Additional observations from a re-analysis of the deposited data

How the results depend on the processing

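Gene calls in lean KO against WT numbered 5 (3 higher, 2 lower) and stayed at 5 with RLE scaling or the stricter filter. They were 135 with no filter (93 higher, 42 lower), 24 with DESeq2 (17 and 7), 7 with limma-voom (5 higher), 10 with the 6 lean libraries alone (8 higher) and 7 with all 22 libraries. The replicate block gave 10 calls (8 higher), and the numbers are not said to pair libraries. Leaving out 1 lean library gave 4 to 11 calls, with 2 to 8 higher and 2 to 3 lower, the 11 without WT library 1. The 5 genes were called in every alternative except Zswim4, lost in 5 of the leave-one-out fits. For the difference from 4 weeks, no filter gave 22 calls and the other alternatives 0. For the difference from 16 weeks, calls were 258 with no filter, 26 with DESeq2, 11 with the replicate block and 0 to 15 leaving out 1 library, the 15 without WT library 1. The causes were not tested. Of 1781 gene values, 1686 kept direction and side of the threshold. Signs turned in Ccr3, Ikzf2, Il1rl1 and Pparg when 1 library was left out. Ccr3 ran from -0.095 to 0.22 and Ikzf2 from -0.086 to 0.093. Il1rl1 ran from -0.0018 to 0.69, below zero without WT library 2. Pparg ran from -0.14 to 0.84, below zero without WT library 3. Of 616 list medians, 594 moved by no more than the spread between libraries, whatever their sign. Signs turned in several lists. The interferon-stimulated median ran from -0.32 to 0.019 and the cell cycle median from -0.18 to 0.15. The heat shock median ran from -0.096 to 0.19 and that of resting T cell genes from -0.23 to 0.042. At these depths genes of few CPM are measured with few counts.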

Other observations

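Among antigen presentation genes, B2m, the light chain of MHC class I, had 4297, 4579.8 and 4486 CPM in KO libraries, against 3837, 3736 and 3804 CPM in WT libraries (log2 0.23 ± 0.093 at adjusted p = 0.581). H2-D1, a class I heavy chain whose family members share sequence and so reads, had 7994, 8016 and 9079.9 CPM in KO, against 7940.5, 6834 and 6941 CPM in WT. KO ranges were above WT for 5 of 15 genes of the list and below for 0, against 6.88% and 6.27% of all genes, and the median log2 fold change was 0.041. At an unadjusted p under 0.05, 1 of the 15 was higher and 0 lower, against 3.72% and 3.45% of all genes. Sqstm1, the autophagy receptor p62, had 1123, 982 and 1006 CPM in KO, against 906, 737 and 845 CPM in WT (log2 0.32 ± 0.10 at adjusted p = 0.421), and Lamp2, a lysosome membrane protein, 78.8, 108 and 77.7 CPM in KO, against 63.0, 69.9 and 56.0 CPM in WT (log2 0.48 ± 0.20 at adjusted p = 0.612). The lysosome and autophagy list as a whole spread on both sides, with 16 of 23 positive folds, against 49.6% of all genes.

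Among trafficking receptors, Ccr8, found on tissue Tregs, had 153, 182 and 144 CPM in KO libraries, against 116, 111 and 59.9 CPM in WT libraries (log2 0.73 ± 0.27 at adjusted p = 0.533). Cd44, the hyaluronan receptor of activated T cells, had 880.2, 794 and 834 CPM in KO, against 782, 406 and 437 CPM in WT (log2 0.63 ± 0.22 at adjusted p = 0.505). S1pr1, the egress receptor, had 188, 152 and 164 CPM in KO, against 199, 233 and 234 CPM in WT (log2 -0.40 ± 0.22 at adjusted p = 0.741), and Tcf7, a factor of resting T cells, 42.2, 68.8 and 47.6 CPM in KO, against 59.1, 109 and 104 CPM in WT (log2 -0.79 ± 0.37 at adjusted p = 0.668). The ranges were apart for Ccr8, Cd44 and S1pr1 and overlapped for Tcf7, and none of the 4 passed over all genes. The list of resting and lymphoid tissue T cell genes had 14 tested members. At an unadjusted p under 0.05, 1 was higher and 1 lower, against 3.72% and 3.45% of all genes. The median was -0.077, and -0.23 to 0.042 leaving out 1 library. Of 13 chemokine receptors, 3 were higher and 0 lower at that p. Of 17 integrins and adhesion molecules, 2 were higher and 1 lower. Of the 839 genes at an unadjusted p under 0.05, WT library 1 lay nearer to the KO mean than to the mean of the other WT libraries for 282 (33.6%). The same count was 75 for WT library 2 and 69 for WT library 3, and for KO libraries 1 to 3 it was 157, 104 and 82 relative to WT.

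Of 13 co-inhibitory receptor genes, Pdcd1, which encodes PD-1, had 363, 636 and 421 CPM in KO libraries, against 420.2, 361 and 261 CPM in WT libraries, and Btla had 17.2, 26.6 and 21.2 CPM in KO, against 24.5, 37.5 and 44.0 CPM in WT. Both overlapped between the groups. At an unadjusted p under 0.05, 3 genes of the list were higher and 1 lower, against 3.72% and 3.45% of all genes. The lipid handling genes of adipose Tregs had a median of 0.17 over 24 genes, with 2 higher and 0 lower, against the same shares. Genes encoded by the mitochondrial genome had a median of 0.11, and antioxidant genes 0.15 over 23.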
